A study of Homo sapiens with 18 samples.

Results

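The region described here is the stretch of chromosome 11 from 125.8 to 127.1 Mb (hg38) that holds CDON and KIRREL3, and it was chosen from the fold changes between belinostat and DMSO libraries, because 2 of the deepest falls of the whole peak table lie in it. Its members are the 259 peaks of the table inside these limits, of 334857 peaks in all, with 0 peaks crossing either limit. Open chromatin was mapped by bulk ATAC-seq, where a transposase tags accessible DNA for sequencing, and the cells were Ccd18-Co, an established fibroblast line from human colon. The 18 libraries formed 3 groups of 6. Unstimulated cells received none of the cytokines. The other two groups received 3 pulses of TNF, OSM and IL-17A at 10 ng/ml each with IL-1β at 0.1 ng/ml, each pulse lasting 72 h and followed by 96 h of recovery. After 1 week of rest these cells were given the solvent DMSO or belinostat at 250 nM for 5 days, and nuclei were taken 2 weeks later. These doses are those of the labels, whereas the study's methods name more belinostat and, in places, less IL-1β. All libraries came from 1 line, the labels do not say whether unstimulated cells received DMSO, and they do not say that the 6 libraries of a group came from separate experiments, so that the errors below may be technical in part. DMSO minus unstimulated is called the cytokine contrast, belinostat minus DMSO the belinostat contrast, and belinostat minus unstimulated the residual contrast.

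CDON is a cell surface protein of the immunoglobulin superfamily that binds Hedgehog ligands together with the receptor PTCH1 and, in myoblasts, joins cadherins in a complex that favours differentiation. KIRREL3 is an adhesion protein of the nephrin family that is known for contacts between neurons and for its relatives in the kidney filter. Belinostat inhibits histone deacetylases, enzymes that remove acetyl groups from histones and other proteins. A peak is a stretch of DNA where transposase cuts pile up, and peaks far from gene starts often mark enhancers.

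The 3 sequences that follow are the central 300 bases of the 3 deepest falls among well covered peaks, printed so that the letters behind the largest changes can be read. All are the plus strand of hg38, 5′ to 3′. Capitals mark 4 of the 14 short words searched, AP-1 (TGANTCA), TEAD (GGAATG), RUNX (TGTGGT) and the TWIST E-box (CAGATG), each on either strand.
Fall upstream of CDON, chr11:126124371-126124670 of the peak chr11:126124172-126124869: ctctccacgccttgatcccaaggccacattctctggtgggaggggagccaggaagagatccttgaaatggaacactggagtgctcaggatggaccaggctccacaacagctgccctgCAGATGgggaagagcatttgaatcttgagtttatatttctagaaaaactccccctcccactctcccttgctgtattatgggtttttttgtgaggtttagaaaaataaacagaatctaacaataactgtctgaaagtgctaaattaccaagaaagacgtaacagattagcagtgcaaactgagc
Fall beside it, chr11:126122906-126123205 of the peak chr11:126122826-126123285: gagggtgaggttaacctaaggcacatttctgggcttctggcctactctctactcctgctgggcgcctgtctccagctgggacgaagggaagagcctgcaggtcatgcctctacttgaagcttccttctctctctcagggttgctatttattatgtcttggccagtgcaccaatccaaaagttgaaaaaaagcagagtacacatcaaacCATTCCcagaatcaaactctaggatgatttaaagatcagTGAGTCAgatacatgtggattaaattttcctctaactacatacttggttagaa
Fall in a KIRREL3 intron, chr11:126459717-126460016 of the peak chr11:126459556-126460178: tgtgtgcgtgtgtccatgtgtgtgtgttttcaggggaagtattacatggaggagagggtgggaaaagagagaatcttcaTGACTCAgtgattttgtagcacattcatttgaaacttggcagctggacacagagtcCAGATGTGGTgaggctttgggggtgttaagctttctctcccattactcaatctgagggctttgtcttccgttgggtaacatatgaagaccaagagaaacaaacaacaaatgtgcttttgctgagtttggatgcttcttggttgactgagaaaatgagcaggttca
The fall upstream of CDON held the E-box word alone, the fall beside it the AP-1 and TEAD words, and the KIRREL3 fall the AP-1, RUNX and E-box words, the last pair sharing letters. Of all peaks of the table, 17.8% held the AP-1 word in their central 300 bases, 21.3% the TEAD word, 22.6% the RUNX word and 25.9% the E-box word, so that each of these words is common. The other 10 words searched were CRE (TGACGTCA), C/EBP (TTGCNNAA), NF-kB (GGGNNTTCC) and GLI (TGGGTGGT), with CCGGAAG for the ETS family. The forkhead family was searched by TGTTTAC, while the word used for the SOX family was ACAATGG. The GATA factors, which bind in many tissues, were searched by AGATAA. CTCF, which anchors chromatin loops, was searched by the core word AGGTGGC and by a separate, closely related word that reads AGGGGGC. None of these 10 stood in the 3 stretches printed, and each stood in at most 14.1% of all peaks. A match is a run of letters and not a bound site.

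The 2 promoters are shown because the peaks over these starts were measured in every library. They are the 250 bases before the gene start from RefSeq (GRCh38.p14), on the minus strand, 5′ to 3′, with the word GGGCGG (a GC box, either strand) in capitals.
CDON promoter, chr11:126063302-126063551: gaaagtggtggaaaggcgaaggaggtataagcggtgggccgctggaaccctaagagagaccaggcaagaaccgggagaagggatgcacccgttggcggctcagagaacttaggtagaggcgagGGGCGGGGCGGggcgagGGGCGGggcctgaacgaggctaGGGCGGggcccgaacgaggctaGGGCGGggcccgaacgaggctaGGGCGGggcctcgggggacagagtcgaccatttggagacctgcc
KIRREL3 promoter, chr11:127003395-127003644: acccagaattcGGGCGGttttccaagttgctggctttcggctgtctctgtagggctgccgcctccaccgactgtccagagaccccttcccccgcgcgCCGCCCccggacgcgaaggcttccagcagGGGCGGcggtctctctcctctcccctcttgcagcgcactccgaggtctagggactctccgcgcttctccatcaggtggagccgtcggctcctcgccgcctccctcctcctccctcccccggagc
CDON held 6 GC boxes with 67.6% G and C, and KIRREL3 held 3 with 68.8%. Among 35116 RefSeq promoters of this length, 42.6% held at least 1 such word, 13.9% at least 3 and 2.22% at least 6, with a median G and C content of 58.0%. Of the 250 bases, 209 lay inside the start peak of CDON and 170 inside that of KIRREL3.

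Library totals over all peaks ran from 7077321 to 11352032 counts in unstimulated, from 6488975 to 8066642 in DMSO and from 4661678 to 6370845 in belinostat libraries, so that the belinostat libraries were the shallowest. The 259 peaks took 0.0645 to 0.0689% of the counts in unstimulated, 0.0693 to 0.0758% in DMSO and 0.0634 to 0.0710% in belinostat libraries. The fibroblast label was checked at gene starts: 9 of 10 fibroblast markers had a peak within 1 kb of the start (THY1 had none), with a median of 26.1 CPM (counts scaled to library size), against 1.52 for 6 epithelial and 1.06 for 4 endothelial markers, while 3 of 5 immune markers, PTPRC among them, had no such peak. Contractile markers had a median of 15.0 CPM, and CD68 among the immune markers reached 15.7 CPM.

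The region was mostly weak, like the peak table as a whole. It held 199 peaks per Mb with a median width of 281 bp, against 275 bp over all peaks. The median level was 0.16 log2 CPM, against 0.20 over all peaks. Of the 259 peaks 186 averaged under 1 log2 CPM, against 238929 of all 334857 peaks. At least 3 log2 CPM was the average of 20, or 7.72%, against 8.88% of all peaks. Of these peaks 217 lay inside annotated genes, 30 were intergenic and 12 lay over a gene start. The KIRREL3 body alone held 130 peaks over 580103 bases, and the CDON body 8 over 107540 bases.

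**Figure D1:**
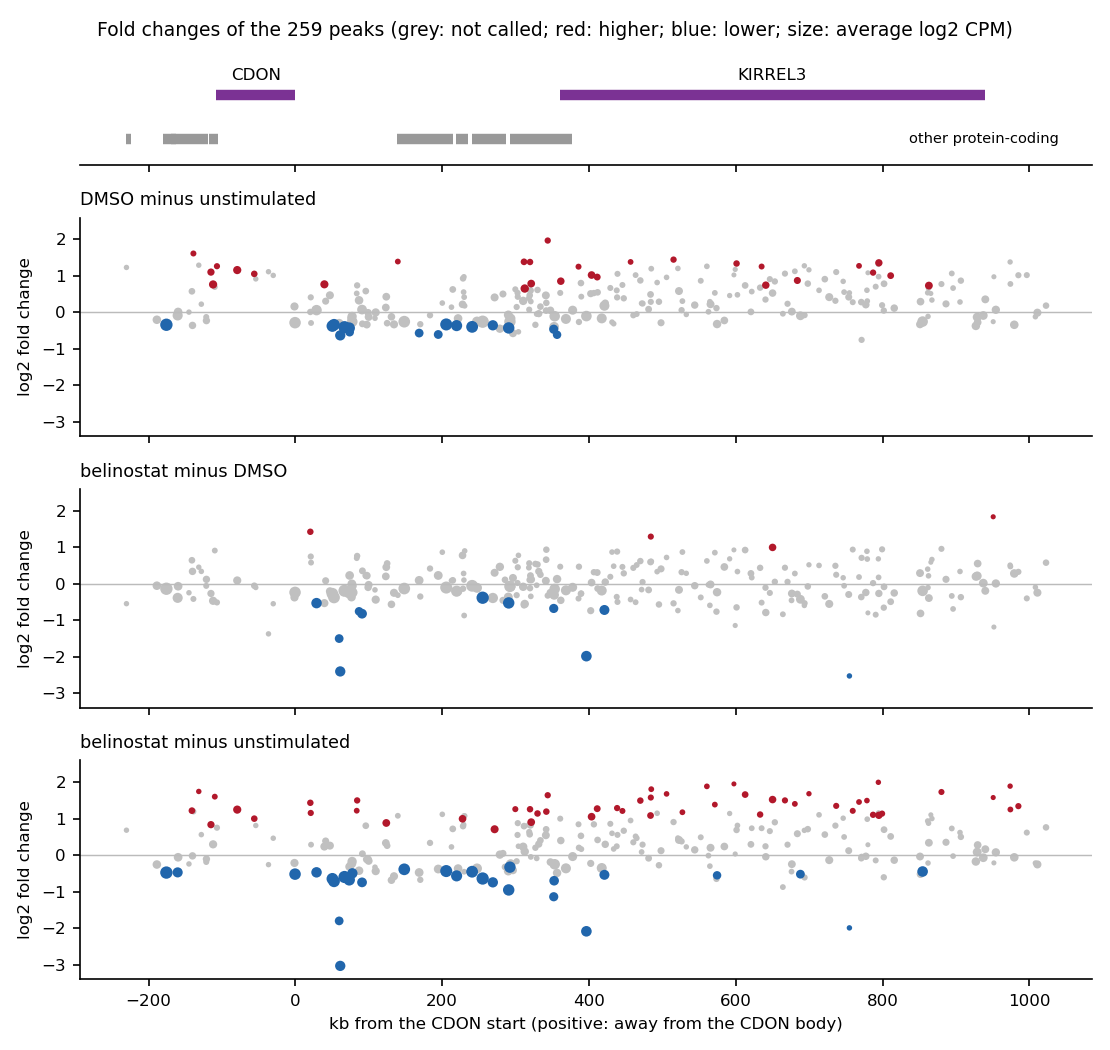
Log2 fold changes of the 259 peaks (y axis) against the distance of the peak centre from the CDON start in kb (x axis) in the 3 contrasts, with protein-coding genes as bars on top. Point size follows the average log2 CPM, red and blue points are peaks called higher and lower at an adjusted p under 0.05, and the 2 large blue points near 61.2 and 397 kb are the deepest falls of well covered peaks.

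Belinostat libraries were lower than DMSO libraries at 11 of the 259 peaks and higher at 4 (edgeR's quasi-likelihood test with TMM scaling, which sets library factors from the bulk of peaks, Benjamini-Hochberg adjusted p under 0.05 over all peaks). Over all 334857 peaks 1.75% were lower and 0.607% higher. Belinostat and DMSO libraries did not overlap at 5 lower peaks and 1 higher peak, against 1.04% and 0.467% of all peaks. In a bulk sample, fewer open cells and less open DNA per cell cannot be told apart. Since these values chose the region, the counts describe it and carry no weight of their own. Leaving out 1 library gave between 7 and 11 lower peaks, with 7 without DMSO 2 and 7 without belinostat 3. The higher count was 1 without DMSO 3, 1 without belinostat 2, 1 without belinostat 5 and 2 without belinostat 3.

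The deepest fall of a well covered peak lay 61.2 kb upstream of the CDON start, over an exon of the lncRNA gene ENSG00000287666. Its counts ran from 70 through a median of 104 to 129 in unstimulated, from 34 through 66 to 97 in DMSO and from 6 through 9 to 15 in belinostat libraries. Scaled to depth, the lowest, median and highest log2 CPM were 3.42, 3.80 and 4.06 in unstimulated, 2.26, 3.25 and 3.75 in DMSO, and 0.54, 0.85 and 1.24 in belinostat libraries. All 6 belinostat libraries lay below all 12 others, with a gap of 1.02 log2 CPM to the lowest DMSO library. The log2 fold change was -2.41 ± 0.21 (SE, n = 6 per group), which leaves 18.9% of the DMSO level, and it had rank 2 from the most negative of 95928 peaks averaging at least 1 log2 CPM. DMSO libraries themselves were spread over 1.49 log2 CPM, more than the 0.64 of unstimulated and the 0.70 of belinostat libraries, with 3 of them below the lowest unstimulated library. Against unstimulated libraries the DMSO mean was lower by a log2 fold change of -0.63 ± 0.14 (SE), or -0.33 after removing the trend with abundance by loess offsets. This lower call in the cytokine contrast was lost with loess offsets and with DESeq2.

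The other deep fall, inside a KIRREL3 intron, stood at similar levels in both groups that had not seen belinostat. Counts ran from 82 through a median of 99.0 to 132 in unstimulated, from 73 through 97.5 to 114 in DMSO and from 11 through 21 to 26 in belinostat libraries. The lowest, median and highest log2 CPM were 3.72, 3.74 and 4.02 in unstimulated, 3.45, 3.78 and 3.97 in DMSO, and 1.3, 1.78 and 2.26 in belinostat libraries. Belinostat libraries again did not overlap the others, and the gap to the lowest DMSO library was 1.19 log2 CPM. The log2 fold change was -1.99 ± 0.16 (SE), which leaves 25.2% of the DMSO level, and it had rank 4 from the most negative of the same 95928 peaks. Its cytokine fold change was -0.10 ± 0.12 (SE), so that unlike its counterpart near CDON this peak differed little between DMSO and unstimulated libraries. The 2 falls were 335 kb apart with 91 peaks between them, and over the 18 libraries their log2 CPM correlated with Pearson's r 0.94, a description that mostly repeats the low belinostat group in both.

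**Figure D2:**
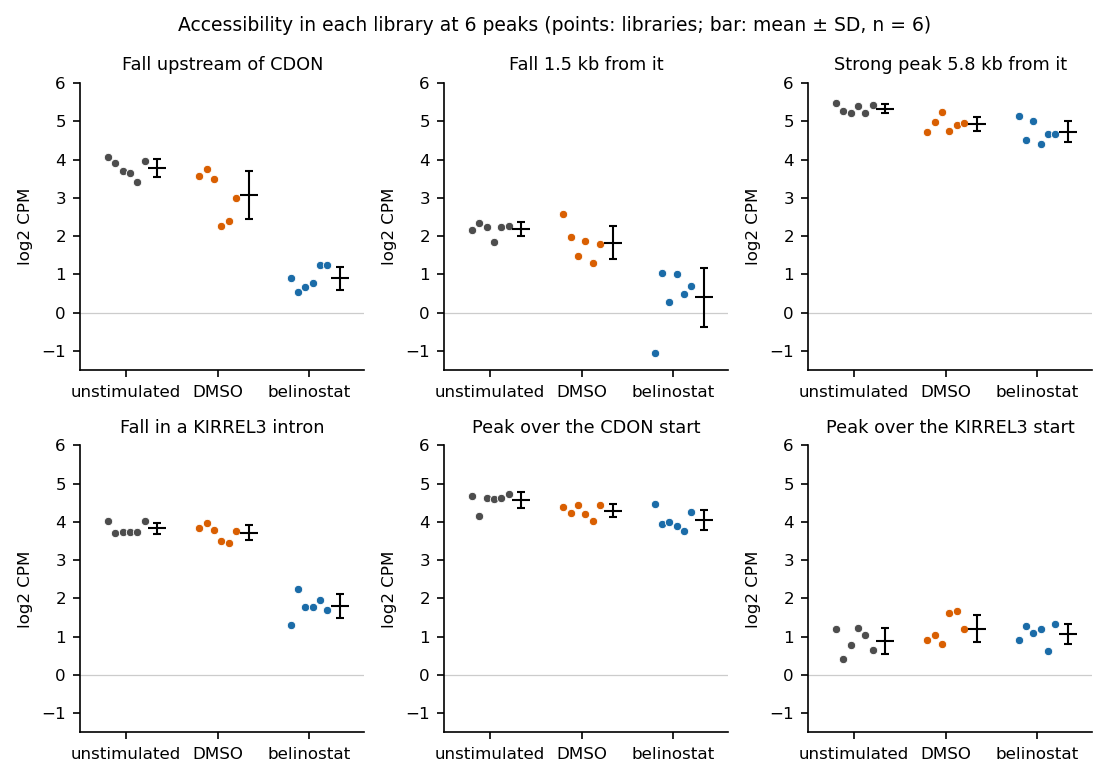
Log2 CPM (y axis) of every library (points) in the 3 groups at 6 peaks, with the group mean and SD (n = 6) as black bars. Belinostat libraries lie apart from the rest at the falls upstream of CDON and in KIRREL3, by gaps of 1.02 and 1.19 log2 CPM to the lowest DMSO library, while the groups overlap at both gene starts.

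Around the CDON fall, 28 other peaks lay within 60 kb, of which 4 were called lower and 1 higher after belinostat. The closest, 1.46 kb away and in the same lncRNA gene, had counts of 28 to 37 in unstimulated, 15 to 42 in DMSO and 1 to 12 in belinostat libraries, with medians of 31.5, 25.5 and 8.5. Its belinostat libraries lay below all others, with a log2 fold change of -1.50 ± 0.25 (SE). The strong peaks on both sides had far smaller values and were not called. The peak 5.80 kb away on the far side from CDON (chr11:126129803-126130843) had 232 to 425, 195 to 255 and 115 to 180 counts and a belinostat log2 fold change of -0.19 ± 0.11 (SE). The next on the near side, 8.47 kb away (chr11:126115763-126116347), had 178 to 286, 133 to 195 and 67 to 120 counts and a change of -0.38 ± 0.12 (SE). That peak was also the first of the region that was not called by its p, and the last that was called was the weak rise at chr11:126547491-126547767, at 1.29 ± 0.39 (SE). The median belinostat log2 fold change of the 28 neighbours was -0.13, with a range from -1.50 to 1.43.

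None of the closest neighbours of the KIRREL3 fall was called. Of 33 other peaks within 60 kb, 2 were called, both lower, and the nearest of them lay 24.6 kb away. The peaks 5.88 and 7.08 kb to one side were weak, with 9 to 16 and 6 to 22 counts in DMSO and 1 to 10 and 4 to 20 in belinostat libraries. Their log2 fold changes were -0.74 ± 0.32 and 0.03 ± 0.26 (SE), the first as large as the -0.72 of the called peak 24.6 kb away. Those 6.94 and 7.42 kb to the other side had 2 to 5 and 2 to 9 counts in belinostat libraries, with -0.26 and -0.27. The median of the 33 neighbours was -0.10. Over the 91 peaks between both falls it was -0.06, with 5 called lower.

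**Figure D3:**
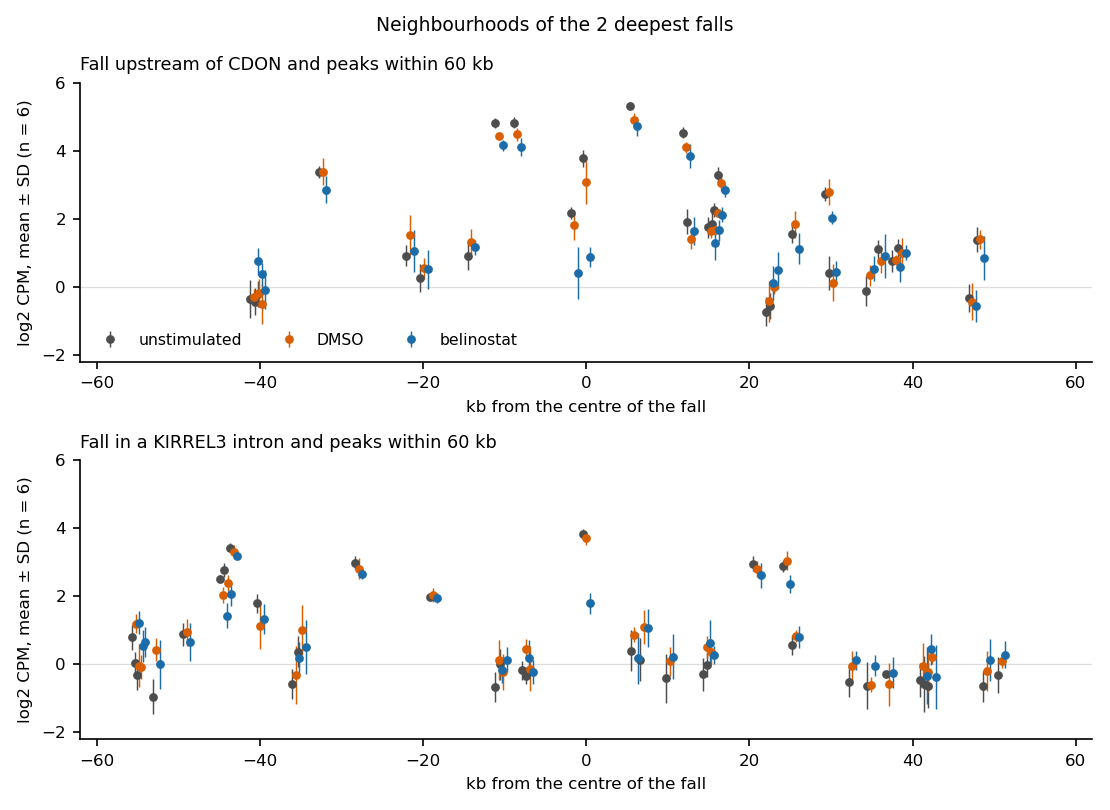
Mean log2 CPM with SD (n = 6, y axis) of each peak within 60 kb of the 2 deepest falls, against the distance from the centre of the fall in kb (x axis), for unstimulated, DMSO and belinostat libraries. At 0 kb the belinostat mean drops to 0.90 in the upper and 1.80 in the lower panel, and the strong peaks 5.80 to 12.3 kb beside the CDON fall keep belinostat means of 3.85 to 4.73.

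The remaining 8 falls were mostly shallow. Along the chromosome, an intergenic peak 28.9 kb upstream of the CDON start went from a DMSO median of 83.0 to a belinostat median of 46.0 counts (log2 fold change -0.53 ± 0.15 SE), and a pair of intergenic peaks 86.8 and 90.9 kb upstream went from 26.5 to 11.5 counts (-0.76 ± 0.22 SE) and from 44 to 22 counts (-0.82 ± 0.17 SE). Of these 3, the last had no overlap between belinostat and DMSO libraries. Strong peaks inside DCPS, which encodes a decapping scavenger enzyme, and inside the lncRNA gene GSEC fell by 0.38 ± 0.11 and 0.53 ± 0.13 (SE) on the log2 scale, with medians from 267.5 to 164.0 and from 140.5 to 79.5 counts. A peak in an intron of ST3GAL4, a sialyltransferase gene, had -0.68 ± 0.20 (SE), and a further one in KIRREL3, 24.6 kb from the deep fall, -0.72 ± 0.16 (SE). The groups overlapped at these last 4 peaks.

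The weakest fall had the most negative fold change of the region but almost no reads. At chr11:126818104-126818309, in a KIRREL3 intron 185 kb from the start, unstimulated libraries had 3 to 5 counts, DMSO libraries 4 to 7 and belinostat libraries 0 to 2, with a log2 fold change of -2.53 ± 0.61 (SE). Belinostat libraries were also the shallowest, and the part of depth in so small a count was not tested.

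The 4 rises were weak peaks as well. DMSO and belinostat medians were 4.0 and 10.0 counts 20.4 kb upstream of CDON (log2 fold change 1.43 ± 0.36 SE), 4.0 and 8.0 counts in KIRREL3 and its antisense gene KIRREL3-AS1 (1.29 ± 0.39 SE), 9.5 and 16.0 counts deeper in KIRREL3 (1.00 ± 0.26 SE) and 1.5 and 4.5 counts 10.6 kb upstream of the KIRREL3 start (1.84 ± 0.53 SE). Only the last of these kept belinostat and DMSO libraries apart. None of the rises averaged as much as 1 log2 CPM, whereas 10 of the 11 falls did, and the falls were wider, with a median of 623 bp against 344 bp. Such a split by level ran through the whole table. After belinostat 9.83% of all peaks of at least 3 log2 CPM were lower and 0.659% higher. Under 1 log2 CPM these shares were 0.124% and 0.438%. With loess offsets 7 of the falls and 3 of the rises were still called. The falls lost were those at 28.9 and 86.8 kb from CDON and those in DCPS and ST3GAL4.

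Of the 12 peaks over gene starts edgeR and DESeq2 called 0 after belinostat, with 1 lower at an unadjusted p under 0.05 in each. In edgeR 1.75% of all peaks were lower and 0.607% higher, so that 0 of 12 is near that share. Of the 11 falls 8 lay inside genes and 3 between them, against 217 and 30 of the 259 peaks. The falls lay 1.61 to 185 kb from the nearest protein-coding start. Counted over all 14 words, the E-box word CAGATG was the most frequent in the falls, in 6 of 11, against 35.5% of the 259 peaks and 25.9% of all peaks. It was also the most frequent word in the region and over all peaks, and it stood in 3 of the 4 rises. The AP-1, TEAD and RUNX words stood in 3 falls each, 27.3%, against 18.9%, 21.6% and 18.1% of the region's peaks. The GLI word TGGGTGGT, a stretch of the site bound by the factors at the end of the Hedgehog pathway, stood in 0 of the falls and in 1.93% of the region's peaks. The median G and C content of the central 300 bases was 48.7% in the falls and 52.3% in the region.

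In the cytokine contrast the region followed the trend of the whole table, with weak peaks higher and strong peaks lower in DMSO than in unstimulated libraries. Of the 259 peaks 28 were higher and 16 lower at an adjusted p under 0.05 in edgeR's quasi-likelihood test, against 9.51% and 9.73% of all peaks. Groups did not overlap at 5 higher and 5 lower peaks, against 2.25% and 3.82% of all peaks. The peaks called higher averaged at most 1.46 log2 CPM and those called lower at least 1.50. Among peaks under 1 log2 CPM the median cytokine fold change (log2) was 0.52 in the region and 0.40 over all peaks, and among those of at least 3 it was -0.34 and -0.36. With loess offsets 15 peaks were higher and 0 lower (6 were lower at an unadjusted p under 0.05), and DESeq2 called 7 lower, whereas TMM over the weaker peaks gave 6 higher and 51 lower. Over all 334857 peaks loess offsets gave 10874 higher and 5023 lower. DESeq2 gave 18587 lower, and TMM over the weaker peaks 7170 higher and 90333 lower. Without unstimulated 6 the higher count was 16. The lower count was 7 without unstimulated 1, 10 without unstimulated 3, 8 without unstimulated 6 and 10 without DMSO 1.

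The largest cytokine rise was a weak peak over an ST3GAL4 exon (chr11:126407072-126407285). Unstimulated libraries had 0 to 4 counts with a median of 2.0, DMSO libraries 5 to 11 with a median of 8.0 and belinostat libraries 1 to 11 with a median of 4.5. DMSO and unstimulated libraries did not overlap, and belinostat libraries spanned both. The cytokine log2 fold change was 1.97 ± 0.43 (SE, adjusted p 0.000734 in edgeR), and 1.76 with loess offsets (adjusted p 0.00641). Next came a peak over a DDX25 exon, at 1.62 ± 0.44 (SE, adjusted p 0.00614), and one in a KIRREL3 intron, at 1.45 ± 0.39 (SE, adjusted p 0.0058). After the CDON fall, the deepest cytokine falls were in introns of ST3GAL4, at -0.62 ± 0.21 (SE, adjusted p 0.0313), and of FAM118B, at -0.61 ± 0.19 (SE, adjusted p 0.0163), and like the CDON fall neither passed with loess offsets (adjusted p 0.164 and 0.149).

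In the residual contrast 51 of the 259 peaks were higher and 28 lower in belinostat than in unstimulated libraries, against 16.8% and 13.7% of all peaks. Of the 11 belinostat falls 10 were also lower than in unstimulated libraries, a count that shares its belinostat libraries with the choice of the region. The CDON fall had a residual log2 fold change of -3.04 ± 0.20 (SE), 12.2% of the unstimulated level, and the KIRREL3 fall -2.09 ± 0.16 (SE), 23.5%. All 4 rises were higher than in unstimulated libraries, by 1.44 to 1.58 on the log2 scale. That count too shares its belinostat libraries with the choice of the rises and carries no weight. With loess offsets 23 peaks were higher and 6 lower, against 24035 and 12254 of all 334857 peaks.

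The peak over the CDON start was strong and the one over the KIRREL3 start weak. At CDON (chr11:126062385-126063510) the lowest, median and highest log2 CPM were 4.14, 4.62 and 4.73 in unstimulated, 4.02, 4.31 and 4.45 in DMSO, and 3.77, 3.97 and 4.47 in belinostat libraries. The groups overlapped throughout. The cytokine log2 fold change was -0.28 ± 0.11 (SE, adjusted p 0.0651 in edgeR) and the residual one -0.52 ± 0.12 (SE, adjusted p 0.000353), but with loess offsets they were 0.08 (adjusted p 0.538) and 0.01 (adjusted p 0.958). The belinostat change was -0.24 ± 0.12 (SE), which leaves the start well above the fall 61.2 kb away.

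At the KIRREL3 start (chr11:127003120-127003564), where the antisense gene KIRREL3-AS3 also begins nearby, counts were 8 to 21 in unstimulated, 10 to 24 in DMSO and 8 to 15 in belinostat libraries. The median log2 CPM were 0.92, 1.11 and 1.14, and the ranges overlapped. The cytokine log2 fold change was 0.36 ± 0.24 (SE, adjusted p 0.288), the residual one 0.16 ± 0.26 (SE, adjusted p 0.663) and the belinostat one -0.19 ± 0.25 (SE). This peak was not called in any contrast, and whether its few counts hid a change was not tested. In all, 9 peaks covered the starts of 12 of the 14 protein-coding genes. In the cytokine contrast 3 of them were lower, those of FOXRED1 and SRPRA, TIRAP, and DCPS, and 0 were higher, and in the residual contrast 7 were lower and 0 higher. Over all peaks 9.73% and 13.7% were lower in these contrasts. Among all peaks of at least 3 log2 CPM, a level that most of the start peaks reached, 66.4% and 84.9% were lower. The counts are thus not particular to these starts. With loess offsets edgeR called 0 of the 9 in either contrast, and at an unadjusted p under 0.05 it had 1 higher in the cytokine and 3 higher in the residual contrast. DESeq2 called 2 and 5 of them lower.

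Summed over each gene body and the 3 kb before its start, the KIRREL3 locus was higher in both groups that had received cytokines. Its lowest, median and highest log2 CPM were 7.04, 7.29 and 7.35 in unstimulated, 7.55, 7.74 and 7.87 in DMSO, and 7.22, 7.77 and 7.87 in belinostat libraries. DMSO libraries lay above all unstimulated libraries, and belinostat 1 lay among the unstimulated ones. The cytokine log2 fold change was 0.48 ± 0.07 (SE, adjusted p 9.73e-05 over 18893 genes in edgeR) and the residual one 0.45 ± 0.08 (SE, adjusted p 4.07e-05), against medians over all genes of -0.02 and -0.01. When the TMM factors of the peak table replaced those of the gene sums, these medians moved to -0.26 and -0.35 and the KIRREL3 values to 0.24 (adjusted p 0.00175) and 0.11 (adjusted p 0.109), so that the residual call was lost. Without its falls the locus had 0.52 and 0.61. These falls were picked for low belinostat counts, so leaving them out had to raise the residual and belinostat values, which carries no weight. The belinostat fold change of the locus was -0.03 ± 0.07 (SE), and 0.09 without the falls, so that the deep fall was not seen in the sum of the locus.

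Of the 130 peaks of the KIRREL3 body 15 were higher and 0 lower in the cytokine contrast, with a median log2 fold change of 0.52, and with loess offsets 6 were higher, with a median of 0.32. The share was like that of weak peaks anywhere. Of the 112 KIRREL3 peaks under 1 log2 CPM 14 were higher, 12.5%, with a median of 0.54, against 12.2% and 0.40 over all peaks under that level. With loess offsets 4 of these 112 were still higher.

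The CDON locus moved less, and its direction depended on the processing. Log2 CPM ran from 4.75 to 4.99 in unstimulated, 4.90 to 5.33 in DMSO and 4.79 to 5.13 in belinostat libraries. The cytokine log2 fold change was 0.23 ± 0.07 (SE, adjusted p 0.0115), 0.25 with loess offsets (adjusted p 0.00865), -0.01 with the TMM factors of the peak table (adjusted p 0.903) and -0.10 with peaks assigned to the nearest start (adjusted p 0.081). The residual one was 0.08 ± 0.07 (SE, adjusted p 0.36). Inside the body 3 of 8 peaks were higher after cytokines, none of them at the start, against 9.51% of all peaks, and with loess offsets 1 of the 8 was higher. The belinostat fold change was -0.15 ± 0.07 (SE) for the locus. It was below 0 in 7 of its 8 body peaks, against 49.1% of all peaks, and 0 of the 8 were called. The fall 61.2 kb upstream lies outside the locus as summed here. When each peak went to its nearest start it counted for CDON, and the belinostat value was then -0.27.

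**Figure D4:**
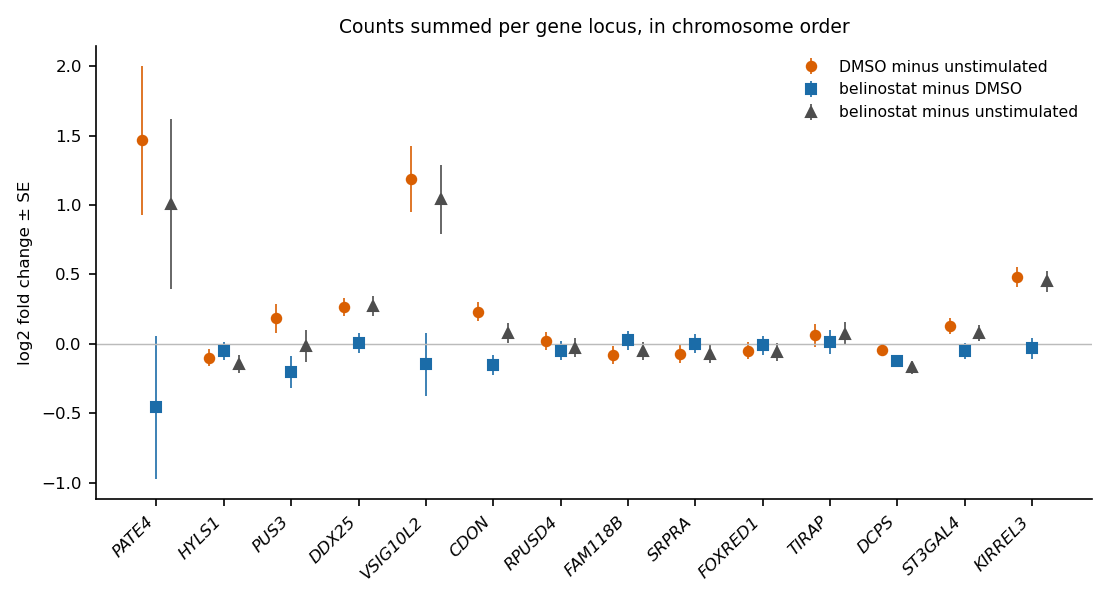
Log2 fold changes with SE (y axis) of the counts summed per locus for the 14 protein-coding genes of the region in chromosome order (x axis), in the 3 contrasts. KIRREL3 lies at 0.48 and 0.45 in the cytokine and residual contrasts and near 0 in the belinostat contrast, and CDON lies at 0.23, 0.08 and -0.15.

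Among the other 12 protein-coding genes, VSIG10L2, which overlaps the end of CDON and shares peaks with it, stood at 1.19 ± 0.24 in the cytokine contrast (log2, SE, adjusted p 0.000847) and at 1.04 ± 0.25 in the residual one (adjusted p 0.0013). DDX25, a helicase gene known from germ cells, had 0.27 ± 0.07 in both (SE, adjusted p 0.00525 and 0.00312), but 0.02 and -0.07 with the TMM factors of the peak table (adjusted p 0.826 and 0.514), so that both calls were lost and the residual sign turned. PATE4 had 1.47 ± 0.53 in the cytokine contrast (SE, adjusted p 0.0383, and 0.26 with loess offsets), with 0 to 10 counts per library in its 1 peak. Over all 18893 gene loci, 19.5% were higher and 12.2% lower in the cytokine contrast, 27.0% and 24.2% in the residual contrast, and 1.76% and 3.72% in the belinostat contrast. In the residual contrast DCPS was lower by -0.17 ± 0.05 (SE, adjusted p 0.00329). It had -0.07 with loess offsets (adjusted p 0.214) and -0.50 with the TMM factors of the peak table (adjusted p 1.96e-06). Without its fall it had -0.07, a move fixed in advance because that peak was picked for low belinostat counts. In the belinostat contrast 0 of the 14 genes were called by edgeR and 0 by DESeq2, with 2 and 1 lower at an unadjusted p under 0.05.

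The partners of both proteins elsewhere in the genome were taken from 3 lists with 36 genes in all. In the cytokine contrast 5 were higher and 6 lower, against 19.5% and 12.2% of all gene loci. The list median was -0.03 against -0.02 over all genes. Calls at single partners below are thus about as common as at other loci. Of the 16 genes of Hedgehog reception, CDON and the ligand gene IHH (0.29, adjusted p 0.0253) were higher and the receptor gene PTCH1 was lower (-0.13, adjusted p 0.0113), while the co-receptor genes BOC and GAS1 and the signal transducer gene SMO did not pass. Of the 11 genes of the promyogenic complex, the α-catenin gene CTNNA1 was higher (0.19, adjusted p 0.00233) and the netrin receptor gene NEO1 (-0.15, adjusted p 0.00511), SPAG9 and MAPK14 were lower. Of the 9 genes around the KIRREL family, KIRREL3 and the nephrin gene NPHS1 (0.33, adjusted p 0.0033) were higher, and KIRREL1 (-0.17, adjusted p 0.00327) and MAP1B were lower. These small shifts turned on the scaling. When the TMM factors of the peak table were used, which moved the median of all genes to -0.26, 1 of the 36 was higher (KIRREL3) and 25 were lower. Over all 18893 gene loci these factors gave 2009 higher and 11642 lower, so that most loci were lower anywhere. The higher calls of CDON, IHH, CTNNA1 and NPHS1 were then lost, at -0.01, 0.05, -0.06 and 0.09 (adjusted p 0.903, 0.681, 0.419 and 0.303).

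After belinostat 2 of the 36 partner loci were called, both higher, against 1.76% higher and 3.72% lower over all gene loci. The Hedgehog-binding endocytic receptor gene LRP2 went from a DMSO mean of 5.24 to a belinostat mean of 5.75 log2 CPM (log2 fold change 0.51 ± 0.08 SE), and NPHS1 from 5.29 to 5.60 (0.31 ± 0.08 SE). With the TMM factors of the peak table LRP2 (0.42) was still called and NPHS1 (0.22) was not. The count was 4 without belinostat 1, 1 without belinostat 2 and 1 without belinostat 5. In the residual contrast 9 were higher and 8 lower, with a list median of 0.01, against 27.0% and 24.2% of all gene loci. These counts became 7 and 1 with loess offsets and 1 and 26 with the TMM factors of the peak table. Over all 18893 gene loci they were 3996 and 3170 with loess offsets and 2427 and 12456 with the peak-table factors.

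Peaks elsewhere whose levels followed the CDON fall most closely over the 18 libraries were sought among 95927 peaks averaging at least 1 log2 CPM. The closest had Pearson's r 0.98 and lay 14.4 kb from the BNC2 start (chr9:16884873-16885618) and 61.7 kb from the TMEM150C start (chr4:82500175-82501160), with belinostat log2 fold changes of -1.40 and -1.15. For the KIRREL3 fall they lay near DNMT1 (chr19:10226309-10227141, r 0.97, -1.11) and 78.5 kb from TIMP3 (chr22:32880041-32880434, r 0.97, -1.41). The libraries of a group share depth and treatment, so these values mainly say that the peaks were low in the same 6 libraries.

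The limits of the region were set by position. The outermost peaks inside had belinostat log2 fold changes of -0.55 and 0.58, and the first peaks beyond them -0.11 and -0.17.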

How the data were processed

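Chromatin accessibility was measured by ATAC-seq in 18 libraries of Ccd18-Co cells, 6 per group by the labels. The authors deposited 1 table of raw counts per consensus peak and library. Per the labels and methods, they ran the ENCODE pipeline for ATAC-seq on hg38, removed duplicates and mitochondrial reads, merged lanes, called peaks with MACS2, counted reads with csaw and, for their own tests, scaled on background bins of 10 kb, which the peak table does not hold. Peak starts are given counted from 1, and 0 columns of the table were without a sample.

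All 334857 peaks were fitted together with edgeR 4.0.16 (R 4.3.3, TMM, quasi-likelihood test, Benjamini-Hochberg adjustment over all peaks), and log2 CPM (counts scaled to library size) used a prior count of 2. Counts were also summed over each gene body and the 3 kb before its start (GENCODE release 44, 18893 loci) with TMM on these sums. The steps were tested on simulated data. Alternatives were other scalings, loess offsets, a filter, DESeq2 1.42.0, the replicate block, each library left out and, chosen after seeing the data, the TMM factors of the peak table for the loci. Named were the pair of falls deepest among peaks of at least 1 log2 CPM without overlap, every peak called in the belinostat contrast, the 2 nearest peaks on each side of the pair, start peaks, the 3 largest rises and falls of the other contrasts, the 3 strongest peaks, the 5 peaks most correlated with each of the pair and the peaks at the limits, 42 of them in the region, and among genes those of the region, the partner lists and the markers. The region, lists and words were chosen with earlier results of these data known. Library totals were 4661678 to 11352032 counts in peaks, which leaves weak peaks with few counts and a large counting error.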

Additional observations from a re-analysis of the deposited data

Results flagged for a closer look

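Of 135 groups of 6 libraries tested, 6 had 1 library standing apart from the other 5, all 6 at named peaks, and chance gives about 1 in 20 groups. At the CDON start unstimulated 2 was lowest at 4.14 log2 CPM, with the next at 4.60. At the fall beside the one upstream of CDON, belinostat 1 was lowest at -1.04, with the next at 0.28. At the weak KIRREL3 fall 185 kb from the start, unstimulated 5 was highest at 0.041, with the next at -0.37. Unstimulated 6 was lowest at a DDX25 exon peak, at -1.81 with the next at -0.89, and at a weak peak 7.42 kb from the deep KIRREL3 fall, at -0.72 with the next at -0.18. At the shared start of DDX25 and PUS3, DMSO 3 was highest at 3.26, with the next at 2.99.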

How the results depend on the processing

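The 2 deepest falls kept their direction and their side of the threshold in all 27 other fits, at -2.58 to -2.26 upstream of CDON and -2.15 to -1.84 in KIRREL3. Counts of called peaks moved with the scaling, and the cause was not tested. Cytokine calls of 28 higher and 16 lower became 59 and 2 with library totals, 6 and 51 with TMM over the weaker peaks, 15 and 0 with loess offsets, 13 and 7 with DESeq2, and 8 lower among peaks above 0 log2 CPM. Over all 334857 peaks 31861 and 32570 became 54265 and 10894 with library totals and 7170 and 90333 over the weaker peaks. They became 10874 and 5023 with loess offsets and 15216 and 18587 with DESeq2. Belinostat calls of 4 higher and 11 lower became 1 and 7 over the weaker peaks, with 7 lower under loess offsets, 7 lower with only the compared groups in the fit and 1 higher with DESeq2. Over all peaks 2034 and 5865 became 391 and 4330 over the weaker peaks. Loess offsets gave 4549 lower, only the compared groups 4841 lower and DESeq2 1081 higher. Residual calls of 51 and 28 became 87 and 17, 8 and 71, and 23 and 6 under the first 3 scalings, and 31 higher above 0 log2 CPM. Over all peaks 56111 and 45962 became 101897 and 21124, 8005 and 107781, and 24035 and 12254 under these 3. Leaving out 1 library gave 16 to 32 higher and 7 to 19 lower in the cytokine, 1 to 5 and 7 to 11 in the belinostat, and 37 to 61 and 25 to 33 in the residual contrast.

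The CDON locus went to -0.10 (nearest start), 0.11 (weaker peaks) and -0.013 (peak-table factors, chosen after seeing the data) in the cytokine, to -0.37, -0.10 and -0.26 in the residual, and to -0.27 (nearest start) in the belinostat contrast. The KIRREL3 locus went to 0.053 (nearest start), 0.087 (without the falls) and 0.0076 (loess) in the belinostat contrast, with -0.069 to 0.046 when 1 library was left out, and to 0.11 (peak-table factors) in the residual contrast. Called partners went from 11 to 18 (weaker peaks) and 26 (peak-table factors) in the cytokine, from 2 to 1 (peak-table factors) and 1 to 4 without 1 library in the belinostat, and from 17 to 8 (loess) and 27 (peak-table factors) in the residual contrast. Over all 18893 gene loci 3687 higher and 2309 lower in the cytokine contrast became 2806 and 8203 (weaker peaks) and 2009 and 11642 (peak-table factors).

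With loess offsets strong peaks changed sign: in the cytokine contrast the peaks starting at 125887010 (0.055), 126113599 (0.0031), 126115763 (0.037) and 126268464 (0.062), and in the residual contrast those at 125887010 (0.11), 126062385 (0.0085), 126211164 (0.15), 126268464 (0.14), 126303665 (0.095) and 126355098 (0.18). With the replicate block the region had 29 higher and 18 lower, 4 and 12, and 50 and 30 peaks in the 3 contrasts, and no named count moved by over 1.5 times. Same-numbered libraries correlated at -0.20 to 0.11 over 18 pairs, with 8 of 36 best with their own number, so that the numbers did not pair the samples. Factors from 10 kb bins were not run for gene loci. Depth limits the weak peaks, with under 10 counts per library.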
